A study of Mus musculus with 37 samples.

Results

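Brown adipocytes store triglyceride in many small lipid droplets and burn the fatty acids that are set free from them. Lipolysis proceeds in steps, in which triglyceride, diacylglycerol and monoacylglycerol are hydrolysed by successive lipases, while coat proteins on the droplet surface and small regulators decide how far the lipases can reach the fat. Lipolysis in adipose tissue is raised by the fall of insulin in an overnight fast and by sympathetic input, and receptors coupled to inhibitory G proteins restrain it.

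Transcripts of 10 genes of this machinery were described in brown adipose tissue (BAT), out of 24657 gene symbols on the array. They comprise the lipases *Pnpla2*, *Lipe* and *Mgll*, the lipase regulators *Abhd5* and *G0s2*, the droplet proteins *Plin1*, *Plin2*, *Plin5* and *Cidec*, and *Niacr1*, the niacin receptor. Each gene was taken by its symbol, and the probe set with the highest mean over the BXD strains stood for it. No difference between strains thus entered the choice of probe set, but the genes were chosen with earlier results of these data known. All 10 were found, and the mean of each lay above the background of the array.

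The samples were 37 pools of BAT RNA, with 1 Affymetrix MoGene 2.0 array each, from 35 BXD strains and from both of their parents, C57BL/6J and DBA/2J. The BXD family descends from a cross of these parents followed by inbreeding, so each strain is fixed for its own mosaic of parental alleles. The mice were males kept on the chow diet Harlan 2018 and were 29 weeks old according to the labels, and they were fasted overnight, anaesthetised with isoflurane and perfused before the tissue was taken. No treatment distinguished the strains. About 5 mice per strain were combined before labelling, so an array gives a strain mean, there is no replicate within a strain, and every spread between strains below also holds the error of pooling and hybridisation.

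Values are in rescaled array units, with the mean of every array at 8 and its SD at 2. A nominal fold is 2 to the power of a difference in these units, and it is a true fold only if the values were log2 with the same SD before rescaling. The 95th percentile of 1128 olfactory receptor probe sets, 7.94, served as the background. The brown fat markers were in place: *Ucp1*, the uncoupling protein of thermogenic fat, ranged from 14.82 to 15.69 and *Cidea* from 14.38 to 14.91, and 11 of 11 brown fat markers and 7 of 7 markers shared by white and brown adipocytes had means above background. Other tissues were represented as well. The mean level of 12 skeletal muscle markers ran from 9.79 in BXD65 to 13.60 in BXD97, and that of 10 liver markers had a median of 7.88 but reached 11.90 in BXD70 and 10.68 in DBA/2J. In such bulk samples, fewer adipocytes and less RNA per adipocyte cannot be told apart.

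*Pnpla2* encodes adipose triglyceride lipase, which removes the first fatty acid from triglyceride. Its lowest, median and highest levels over the 35 strains were 14.95 in BXD97, 15.16 and 15.29 in BXD75, with a mean of 15.16 ± 0.08 (SD, n = 35). The strains were nearly level, with a nominal range of 1.26-fold, wider than that of only 0.5% of the probe sets above background. *Lipe* encodes hormone-sensitive lipase, the enzyme of the second step, and ran from 12.36 in BXD99 through a median of 12.62 to 12.81 in BXD75. Its mean was 12.59 ± 0.09 (SD, n = 35) and its nominal range 1.37-fold. *Mgll*, the monoacylglycerol lipase of the last step, varied more, from 12.37 in BXD43 through 12.72 to 13.10 in BXD62, with a mean of 12.70 ± 0.21 (SD, n = 35) and a range of 1.66-fold. The 3 lipases had narrower nominal ranges than the median probe set above background, 1.77-fold.

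Both regulators of adipose triglyceride lipase varied more widely than the lipase itself in these units. *Abhd5* encodes the activator of that enzyme, also called CGI-58, and ran from 11.11 in BXD69 through a median of 11.66 to 12.29 in BXD62. Its mean was 11.63 ± 0.28 (SD, n = 35), and its range of 2.26-fold was wider than that of 74.7% of the probe sets above background. *G0s2* encodes an inhibitor of the same enzyme and ran from 10.03 in BXD90 through 10.91 to 11.78 in BXD96. The mean of *G0s2* was 10.92 ± 0.39 (SD, n = 35) and its range was 3.37-fold, wider than that of 91.3% of the probe sets above background. Strain BXD90 stood 0.36 units below the next strain, and without it the range fell to 2.62-fold. *G0s2* was the one gene of the 10 with a second probe set, which had a mean of 8.43 and followed the first with r = 0.73 over the strains.

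Among the droplet proteins, *Plin1* encodes the coat protein of adipocyte droplets that holds ABHD5 back from the lipase until it is phosphorylated. *Plin1* ran from 13.45 in BXD83 through 13.81 to 14.01 in BXD66, a range of 1.48-fold around a mean of 13.79 ± 0.12 (SD, n = 35). *Plin2*, the coat protein found in most cell types, ran from 13.59 in BXD81 through 13.94 to 14.26 in BXD96, a range of 1.60-fold with a mean of 13.92 ± 0.18 (SD, n = 35). *Plin5* encodes the coat protein of oxidative tissues, where droplets lie against mitochondria. It ran from 11.43 in BXD97 through 11.81 to 12.25 in BXD50, with a mean of 11.84 ± 0.23 (SD, n = 35) and a range of 1.77-fold. *Cidec*, which promotes the growth of droplets by exchange of lipid between them, ran from 14.18 in BXD97 through 14.56 to 14.83 in BXD62, with a mean of 14.55 ± 0.17 (SD, n = 35) and a range of 1.57-fold. In *Plin1*, BXD83 (z = -2.90) lay 0.10 units below the next strain.

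*Niacr1*, now named *Hcar2*, encodes a receptor for niacin and the ketone body beta-hydroxybutyrate that couples to an inhibitory G protein. Its levels ran from 7.88 in BXD87 through a median of 8.90 to 10.21 in BXD56, with a mean of 8.84 ± 0.45 (SD, n = 35), and 34 of 35 strains lay above background. The nominal range of 5.02-fold was the widest of the 10 genes. It rested on 1 strain, since BXD56 lay 0.85 units above the next, BXD45 at 9.36, and without BXD56 the range was 2.78-fold.

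**Figure D1:**
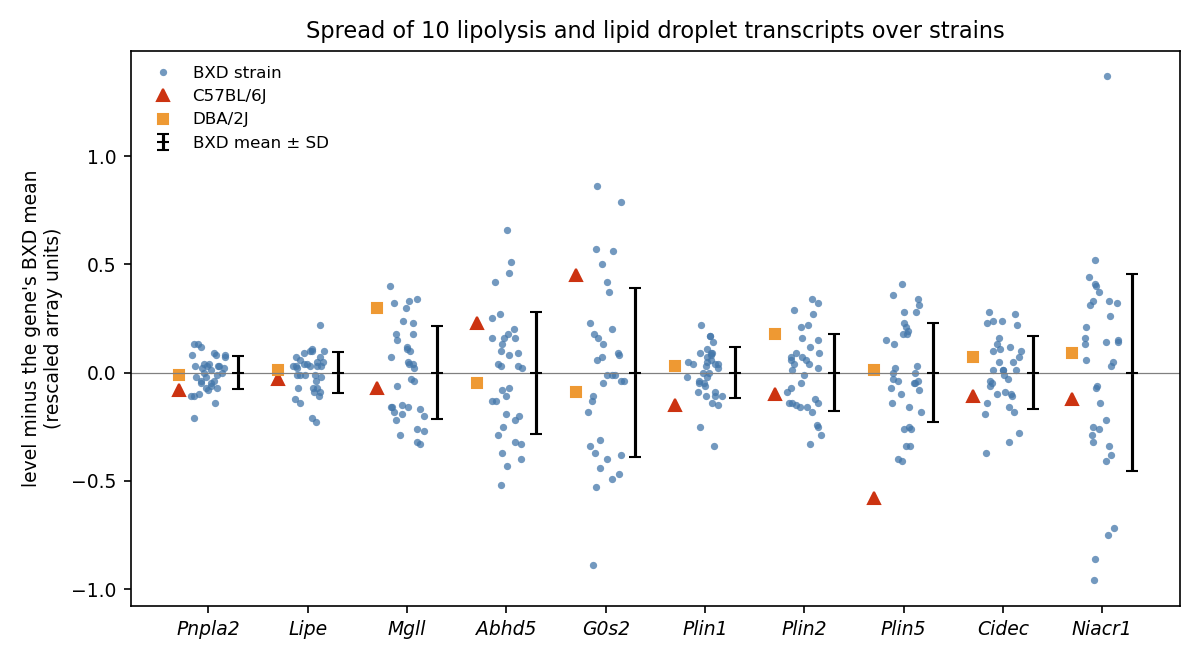
Level of each gene in the 35 BXD strains (blue points) as the difference from that gene's BXD mean, in rescaled array units, with the mean ± SD (black bars) and the parents C57BL/6J (red triangles) and DBA/2J (orange squares). *Pnpla2* and *Lipe* form the narrowest columns (SD 0.08 and 0.09), *G0s2* and *Niacr1* the widest (SD 0.39 and 0.45), BXD56 is the isolated high point of *Niacr1*, and C57BL/6J lies below all strains for *Plin5*.

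Of the 10 genes, 4 (*Abhd5*, *G0s2*, *Plin5* and *Niacr1*) ranged over at least 0.81 units between the lowest and the highest strain, against 60.7% of all probe sets and 52.2% of those above background. A range over 3.0-fold was found for 2 of 10, *G0s2* and *Niacr1*, against 15.7% of all probe sets and 12.2% of those above background, and for 1 of 10 without BXD56 (*G0s2*) or without BXD90 (*Niacr1*). It was also 1 of 10 (*Niacr1*) with the muscle score as a covariate or with both probe sets of *G0s2* averaged, and 0 of 10 by the range from the 5th to the 95th percentile of the strains. The median range of the 10 genes was 1.63-fold, that of all probe sets 1.86-fold. *Plin5* at 1.77-fold was the gene just inside the limit of 0.81 units and *Mgll* at 1.66-fold the one just outside. Among the 1407 probe sets with a mean over 12, the median range was 1.67-fold, 41.8% reached 0.81 units and 7.82% exceeded 3.0-fold. In that set the range of *Pnpla2* exceeded 3.3% and that of *Lipe* 13.6% of the ranges, so both were narrow also beside bright probe sets. The set reaches down to 12, and a comparison at the level of *Pnpla2* itself was not made. Among bright fat markers, *Fabp4* (15.54 to 15.86) and *Cd36* (14.94 to 15.35) were also narrow, while *Ucp1* (14.82 to 15.69) was wider.

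The parents were compared as 1 array each, without a test. Between C57BL/6J and DBA/2J, 1 of the 10 genes differed by more than 1.5-fold nominal, against 9.37% of all probe sets and 8.4% of those above background. That gene was *Plin5*, at 11.26 in C57BL/6J and 11.85 in DBA/2J, a difference of 0.59 units or 1.51-fold, and the C57BL/6J value lay below all 35 BXD strains. With arrays centred on their medians or quantile-normalised the difference was 0.57, just under the limit. *G0s2* was just outside it in the other direction, at 11.37 in C57BL/6J and 10.83 in DBA/2J, 1.46-fold higher in C57BL/6J. *Abhd5* was also higher in C57BL/6J, at 11.86 against 11.58, and the other 8 genes had higher values in DBA/2J. The array of DBA/2J carried liver transcripts, with albumin (*Alb*) at 13.93 against a BXD median of 7.85, and their part in these differences was not tested. For 9 of 10 genes both parents lay within the span of the BXD strains. The strains above and below both parents were 19 and 5 for *Pnpla2*, 19 and 11 for *Lipe* and 4 and 14 for *Mgll*. They were 6 and 16 for *Abhd5*, 5 and 13 for *G0s2*, 16 and 2 for *Plin1* and 6 and 12 for *Plin2*. For *Plin5* they were 15 and 0, for *Cidec* 12 and 7 and for *Niacr1* 17 and 13. The same counts were not made over all probe sets.

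In GRCm38.p6, *Pnpla2* lies at chr7:141455188-141460743, *Lipe* at chr7:25379527-25398486 and *Plin1* at chr7:79721164-79732904, all on the same chromosome. *Mgll* lies at chr6:88724412-88828360 and *Cidec* at chr6:113424634-113435760. The other members are on chromosomes of their own, *Abhd5* at chr9:122351616-122381524, *G0s2* at chr1:193272160-193273188, *Plin2* at chr4:86626910-86670217, *Plin5* at chr17:56111597-56117606 and *Niacr1* at chr5:123863570-123865516.

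The start regions of 3 genes are shown from RefSeq (GRCm38.p6), those of *Abhd5* and *Cidec* because they formed a called pair over strains and that of *G0s2* because it had the widest spread of the genes with such a sequence at hand. Each line holds the 150 bases before the annotated start, read 5′ to 3′ on the gene's strand, and capitals mark the motifs found.
*Abhd5*, chr9:122351466-122351615, plus strand: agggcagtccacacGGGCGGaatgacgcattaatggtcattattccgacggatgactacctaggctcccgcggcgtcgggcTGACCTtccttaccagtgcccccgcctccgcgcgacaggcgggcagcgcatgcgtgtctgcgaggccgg
*Cidec*, chr6:113435761-113435910, minus strand: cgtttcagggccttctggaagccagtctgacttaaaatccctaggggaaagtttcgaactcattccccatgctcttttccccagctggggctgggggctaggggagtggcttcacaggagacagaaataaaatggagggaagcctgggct
*G0s2*, chr1:193273189-193273338, minus strand: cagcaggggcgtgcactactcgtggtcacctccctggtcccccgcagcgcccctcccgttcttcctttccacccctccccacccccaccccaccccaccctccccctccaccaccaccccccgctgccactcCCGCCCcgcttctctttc

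Upstream of *Abhd5*, the nuclear receptor hexamer AGGTCA was found on the reverse strand 69 bases before the start and the GC box GGGCGG at 136 bases before it. Upstream of *G0s2*, a GC box lay on the reverse strand 18 bases before the start, and the *Cidec* window held none of the 6 motifs searched. Over the 9 genes with a RefSeq window, the first window of each was searched on both strands in the 250 bases before the start. The hexamer was in 3 of 9 (*Abhd5*, *Plin2*, *Plin5*), against 14% of 32851 windows. The GC box was in 5 of 9, against 32.7%, the E-box CACGTG in 2 of 9, against 6.02%, and the CCAAT box CCAAT in 2 of 9, against 33.8%. The TATA box TATAAA and the core of the cyclic AMP response element TGACGT were in 0 of 9, against 12.4% and 6.47%. The shares are over all windows, also the later ones of a gene, while each member was counted by its first. With any window of a member counted, the GC box was in 6 of 9 and the other counts were the same. These counts describe letters in a window, and an absence says only that the letters are not in it.

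Covariation was examined over the 35 BXD strains to see whether the genes of the pathway rise and fall together. For each gene, limma was fitted to every other probe set with the level of that gene as the covariate, and p-values were adjusted by Benjamini-Hochberg over all probe sets. A pair was called where it passed 0.05 in both of its fits. All 36 pairs among the 9 genes other than *Niacr1* had a positive Pearson's r, from 0.10 for *G0s2* with *Cidec* to 0.70 for *Plin1* with *Plin5*, with a median of 0.45. With quantile normalization the lowest pair, *Pnpla2* with *Plin2*, turned to -0.02, and with arrays centred on the median *Pnpla2* with *G0s2* did so, also at -0.02. With the score of 11 brown fat markers as a covariate, a setting added after the data had been seen, the median was 0.38 and *Pnpla2* with *Plin2* was at -0.04. The median r of a single gene with the other 8 lay between 0.42 for *Mgll* and 0.51 for *Lipe*, while the median over all probe sets lay between 0.01 and 0.03. At an unadjusted permutation p under 0.05 (100000 permutations, two-sided), 30 of the 36 pairs passed, all positive, and the unadjusted limma test in both fits also passed 30. Across all probe sets, the share with a positive slope at an unadjusted limma p under 0.05 was 6.9% in the fit on *Pnpla2*, 5.13% on *Lipe*, 7.36% on *Mgll*, 5.06% on *Abhd5*, 7.81% on *G0s2*, 6.37% on *Plin1*, 5.66% on *Plin2*, 4.76% on *Plin5*, 5.77% on *Cidec* and 5.77% on *Niacr1*.

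**Figure D2:**
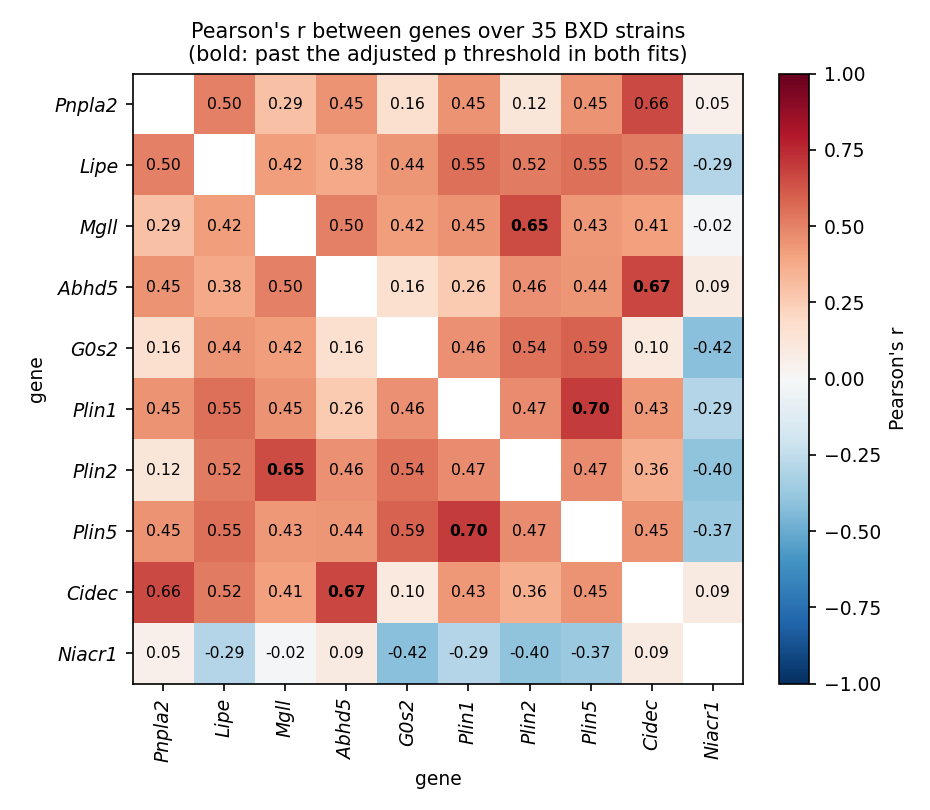
Pearson's r over the 35 BXD strains for all 45 pairs of the 10 genes, from blue (negative) to red (positive), with bold type for the pairs called in both limma fits. The block of the 9 genes other than *Niacr1* is red throughout, the 3 bold pairs are *Mgll* with *Plin2* (0.65), *Abhd5* with *Cidec* (0.67) and *Plin1* with *Plin5* (0.70), and the *Niacr1* row holds the 6 negative values.

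After adjustment over all probe sets, 3 of the 45 pairs were called. In the fits on single genes, 1 of the 9 other genes was called with *Mgll* against 0.168% of all probe sets in either direction and 0.0607% with it, and 1 with *Abhd5* against 0.59% and 0.338%. In the fit on *Plin1*, 1 was called against 0.0267% and 0.0146%, and in that on *Cidec* 1 against 0.177% and 0.141%. In the fits on *Plin2* and *Plin5*, 1 was called in each, against 0.467% and 0.0948% for *Plin2* and 0.0778% and 0.0753% for *Plin5*. *Plin5* also passed in the fit on *G0s2*, against 1.28% in either direction and 0.362% with it, but the reverse fit did not pass (adjusted p = 0.0301 and 0.0835, limma). *G0s2* with *Plin5* (r = 0.59) was called in both fits with quantile normalization, the muscle score or the brown fat score as a covariate, averaged probe sets, dim probe sets left out and without BXD90, and under the muscle score it took the place of *Plin1* with *Plin5* among the 3 called pairs. None of the 3 called pairs stayed called with the brown fat score as a covariate, where the 2 called pairs were *G0s2* with *Plin2* (r = 0.60) and *G0s2* with *Plin5* (r = 0.68). No gene was called in the fits on *Pnpla2*, *Lipe* and *Niacr1*, against 0.0462%, 0.00243% and 0.284% of all probe sets. The numbers of probe sets behind these shares moved by over 1.5 times when single strains were left out, from 19 to between 0 and 59 for *Pnpla2*, from 1 to between 0 and 9 for *Lipe*, from 69 to between 3 and 222 for *Mgll*, from 11 to between 0 and 36 for *Plin1*, from 73 to between 6 and 132 for *Cidec*, from 243 to between 115 and 325 for *Abhd5*, from 192 to between 63 and 303 for *Plin2* and from 32 to between 13 and 42 for *Plin5*.

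The r of the activator *Abhd5* and the droplet protein *Cidec* was 0.67 and Spearman's rho was 0.68 (permutation p = 1e-05, the smallest that 100000 permutations can give, and 5e-05), with limma adjusted p of 0.012 and 0.0137. Without the 2 strains farthest from the median, r was 0.67 for *Abhd5* and 0.66 for *Cidec*, but with the larger adjusted p at 0.0956. The pair was called with each strain left out in turn except BXD97, without which the larger adjusted p was 0.0652. BXD97 was the lowest strain of *Cidec* and the second lowest of *Abhd5*, and BXD62 the highest of both. Both genes were also called with the brown fat list (r = 0.65 for *Cidec* and 0.51 for *Abhd5*), whose score was lowest in BXD97, and with that score as a covariate the pair had r = 0.51 and was not called (adjusted p = 0.692). BXD97 also had the highest level of the skeletal muscle markers, which neither gene followed (r = -0.28 and -0.04), and with their score as a covariate the adjusted p was 0.017.

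*Mgll* and *Plin2* had an r of 0.65 and a rho of 0.62 (permutation p = 2e-05 and 9e-05), with limma adjusted p of 0.0389 and 0.0182. Without the 2 strains farthest from the median, r was 0.69 and 0.63. The call was lost when the fit held the first principal component (r = 0.58, adjusted p = 0.3) or the brown fat score (r = 0.63, adjusted p = 0.0525), with arrays centred on the median (r = 0.62, adjusted p = 0.0825) and without BXD45, BXD51, BXD62, BXD64, BXD66, BXD83, BXD84, BXD85, BXD96 or BXD99, each left out alone, with r from 0.62 to 0.71 and the adjusted p from 0.0215 to 0.0851 over all single strains left out.

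*Plin1* and *Plin5* had the highest r, 0.70, with a rho of 0.71 (permutation p = 1e-05 for both, the smallest possible), and limma adjusted p of 0.0237 and 0.0469. Without the 2 strains farthest from the median, r was 0.67 and 0.71. The adjusted p lay so near the threshold that leaving out any of 22 strains ended the call, with a range of 0.0244 to 0.122, and so did centring on the array median (adjusted p = 0.0924), the muscle score (0.0651) or the brown fat score as a covariate (0.117), ranks (0.052) and leaving out the 2 farthest strains (0.232). Among single omissions it held only where BXD43, BXD49, BXD50, BXD55, BXD61, BXD64, BXD68, BXD69, BXD70, BXD85, BXD89, BXD90 or BXD95 was the strain left out. Over all single omissions, r itself moved only between 0.68 and 0.73.

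**Figure D3:**
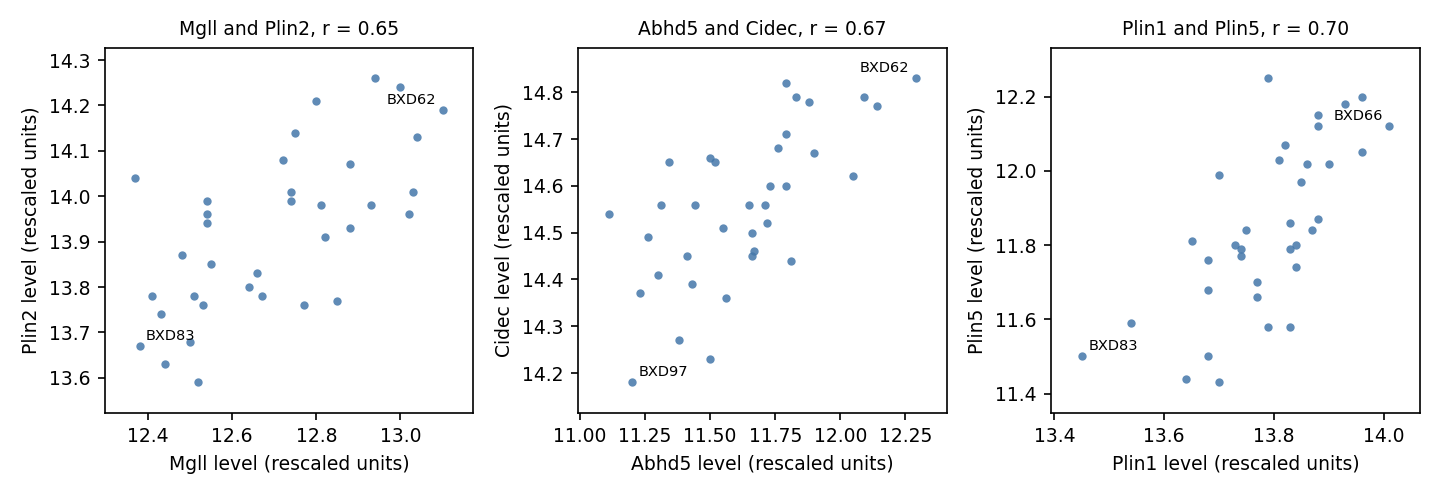
Levels in rescaled array units of the 3 called pairs, with 1 point per BXD strain (n = 35) and 2 strains named in each panel. BXD62 is at or near the top of the first 2 panels, BXD83 is among the lowest points of the first and the third, and BXD97 is the lowest point of the second for *Cidec*.

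*Niacr1* ran apart from the other 9. Its r was negative with 6 of them and positive with 3, between -0.42 for *G0s2* and 0.09 for *Abhd5* and *Cidec*, with a median of -0.29, against a median of 0.00 over all probe sets. With *G0s2*, r was -0.42 and rho -0.40 (permutation p = 0.0114 and 0.0186). With *Plin2*, r was -0.40 and rho -0.31 (permutation p = 0.0176 and 0.071), and with *Plin5* r was -0.37 and rho -0.30 (permutation p = 0.0309 and 0.0784). None of these passed the adjustment over all probe sets (limma adjusted p from 0.146 to 0.5), so no pair with *Niacr1* was called. With the first principal component as covariate 5 of the 9 values were negative. Without the 2 strains farthest from the median of *Niacr1*, r was -0.39 with *G0s2*, -0.30 with *Plin2* and -0.28 with *Plin5*. Without those farthest from the median of the other gene, r was -0.44, -0.31 and -0.40, and without BXD56 r with *Plin5* was -0.26.

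**Figure D4:**
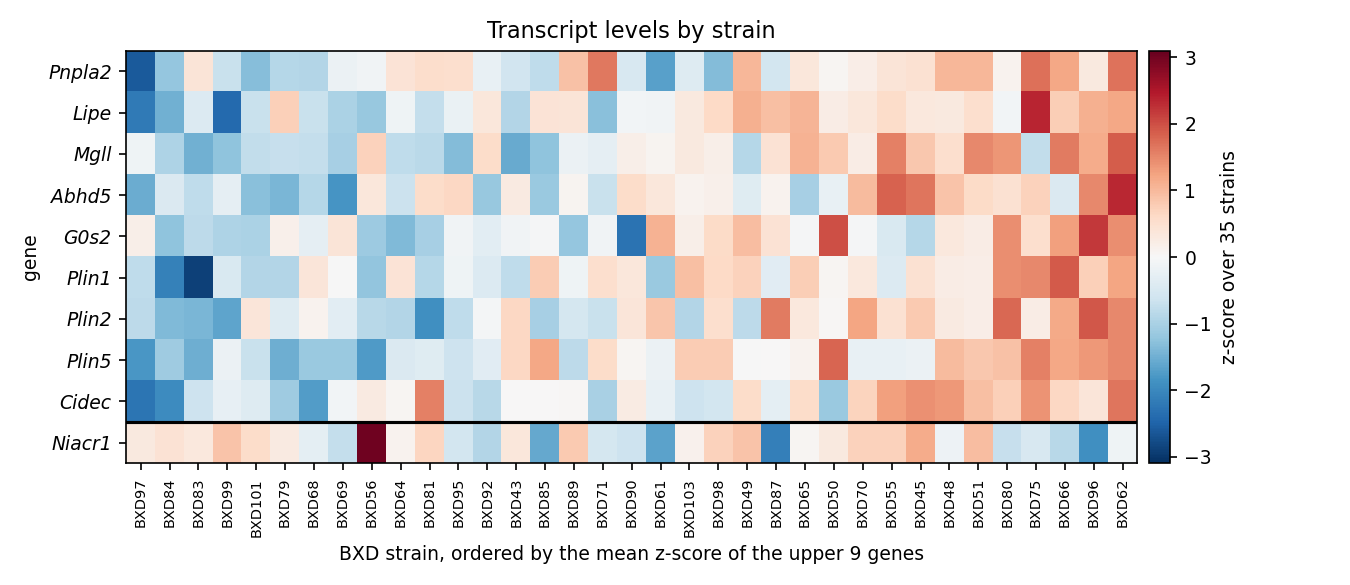
Level of each gene (rows) in each BXD strain (columns) as a z-score over the 35 strains, from blue (low) to red (high), with strains ordered by the mean z-score of the 9 genes above the black line. BXD62 at the right is red in all 9 rows, BXD97 and BXD84 at the left are blue in most, and *Niacr1* below the line has its highest value in BXD56 (z = 3.01).

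Seen by strain, BXD62 was among the 5 highest for 9 of 9 genes other than *Niacr1*, with a mean z-score of 1.60, and was the highest of all in *Mgll*, *Abhd5* and *Cidec*. BXD96 followed with a mean z-score of 1.18, and was above the mean for 9 of 9, as were BXD48 and BXD51. At the other end, BXD97 had a mean z-score of -1.33 and was the lowest in *Pnpla2*, *Plin5* and *Cidec*, and BXD84, at -1.32, was below the mean in all 9. BXD83, at -1.06, had the lowest *Plin1*. The brown fat score was -1.449 in BXD97, -1.277 in BXD84 and -0.586 in BXD83, but also -0.755 in BXD96, and 0.307 in BXD62. The skeletal muscle score of these strains was 1.417, 0.475, 1.149, 0.886 and 0.41, in the same order. The part of tissue make-up in the order of strains was not tested. Some strains split the genes. BXD90 had the lowest *G0s2* (z = -2.29) and was within 1 SD of the mean for the other 8, and BXD50 was high in *G0s2* (z = 2.01) and *Plin5* (z = 1.80) but low in *Cidec* (z = -1.15). BXD81 was low in *Plin2* (z = -1.89) and high in *Cidec* (z = 1.56). The array medians ran from 7.77 in BXD83 to 7.87 in BXD62, but were 7.83 in BXD97, 7.81 in BXD84 and 7.82 in BXD96. With arrays centred on the median, the mean z-score of BXD62 was 1.31, still the highest. That of BXD83 was -0.79 and that of BXD97 was -1.46. With 1 array per strain, the order of neighbouring strains cannot be set against a replicate error.

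The other genes of the pathway were read from the same fits. Of 23 further droplet and lipolysis genes, 13 genes that respond to peroxisome proliferator-activated receptors (PPARs) and 9 lipogenic genes with a probe set, 9 gene and member combinations were called over the 10 fits, 8 with the member and 1 against it. For *Abhd5*, 1 of 23 droplet genes and 2 of 13 PPAR-responsive genes were called with it and 0 against it. For *Plin5*, 1 of 23 and 1 of 13 were called with it, for *Cidec* 1 of 23, for *Niacr1* 1 of 23, and for *G0s2* 1 of 23 with it and 1 of 23 against it. The limma fits on *Pnpla2*, *Lipe*, *Mgll*, *Plin1* and *Plin2* called none of the 45 listed genes. The shares of all probe sets called with each member were given above, those called with *Niacr1* came to 0.197% and those called against *G0s2* to 0.919%. At an unadjusted limma p under 0.05, between 3 of the 23 droplet genes for *G0s2* and 9 of 23 for *Plin1* ran with a member, among them 8 of 23 for *Pnpla2* and for *Plin5*. Between 1 and 4 of 23 ran against a member, with the 4 at *Niacr1*, against 5.51% of all probe sets for *Pnpla2*, 4.19% for *Lipe*, 6.41% for *Mgll*, 4.78% for *Abhd5*, 8.16% for *G0s2*, 5.26% for *Plin1*, 6.2% for *Plin2*, 3.76% for *Plin5*, 4.74% for *Cidec* and 5.34% for *Niacr1*.

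*Bscl2* encodes seipin, an endoplasmic reticulum protein needed to form droplets of normal size. It ran from 13.11 in BXD97 through a median of 13.75 to 14.03 in BXD55. It rose with *Abhd5* (r = 0.74, rho = 0.76, limma adjusted p = 0.00123) with each strain left out and in 10 of 11 alternatives, the exception being the brown fat score as a covariate (adjusted p = 0.106). It also rose with *Cidec* (r = 0.72, rho = 0.71, adjusted p = 0.00932), except without the 2 farthest strains (adjusted p = 0.172), with the brown fat score as a covariate (adjusted p = 0.817) or without BXD97 (adjusted p = 0.0543). *Acot1* and *Acot2*, acyl-CoA thioesterases of the cytosol and the mitochondria, both rose with *Abhd5*. *Acot1* ran from 6.50 in BXD85 to 9.34 in BXD55 with a mean of 7.94, about the background (r = 0.73, adjusted p = 0.00104), and it was called with each strain left out. *Acot2* was brighter, from 12.46 in BXD68 to 13.67 in BXD103, and its r with *Abhd5* was 0.57 (adjusted p = 0.0455), a call that held in only 11 of 35 single omissions and had an adjusted p of up to 0.276 over the alternatives. *Acot1* and *Acot2* are close paralogs, and their probe sets may share signal, so the pair counts as uncertain.

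*Fitm2*, an endoplasmic reticulum protein that partitions triglyceride into droplets, ran from 12.71 in BXD101 through 13.08 to 13.33 in BXD62. It rose with *Plin5* (r = 0.73, rho = 0.71, adjusted p = 0.0118) in 11 of 11 alternatives (adjusted p up to 0.046) and with each strain left out. *Acot2* also rose with *Plin5* (r = 0.63, adjusted p = 0.0484), but this call was lost in 7 of 11 alternatives and in 27 of 35 single omissions. *Plin4*, a coat protein of nascent adipocyte droplets, ran from 12.83 in BXD95 through 13.27 to 13.66 in BXD96. It rose with *G0s2* (r = 0.68, rho = 0.66, adjusted p = 0.00873) with each strain left out, and lost the call in 2 of 11 alternatives (adjusted p up to 0.0976). *Abhd6*, a monoacylglycerol lipase, ran from 11.06 in BXD97 through 11.58 to 12.08 in BXD90. It fell with rising *G0s2* (r = -0.61, rho = -0.59, adjusted p = 0.0224), and the call was lost without BXD90 (adjusted p = 0.0619), the strain lowest in *G0s2* and highest in *Abhd6*, and in 3 of 11 alternatives (adjusted p up to 0.106).

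At an unadjusted limma p under 0.05, the PPAR-responsive list ran most often with *Abhd5* (7 of 13 with it and 1 against), *Pnpla2* (6 of 13 with, 0 against) and *Plin5* (5 of 13 with, 0 against), against 5.06%, 6.9% and 4.76% of all probe sets. Their median r was 0.34 for *Abhd5*, 0.32 for *Pnpla2* and 0.31 for *Plin5*, and between -0.02 and 0.17 for the other 7 members. None of the 9 lipogenic genes, such as fatty acid synthase, was called with any member by limma. At an unadjusted p under 0.05, 4 of 9 ran with *Niacr1*, 2 of 9 with *Pnpla2*, 2 of 9 with *Plin2* and 1 of 9 with *Abhd5*. The shares of all probe sets that did so were 5.77%, 6.9%, 5.66% and 5.06%. In the other direction, 1 of 9 ran against *G0s2* and 1 of 9 against *Plin5*, beside 8.16% and 3.76% of all probe sets.

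*Niacr1* had its only call among the listed genes with *Gpr81*. *Gpr81*, now named *Hcar1*, encodes the lactate receptor of adipocytes, which restrains lipolysis through the same kind of G protein, and it is among the 5 genes on either side of *Niacr1* on chromosome 5. *Gpr81* ran from 9.74 in BXD87 through a median of 10.67 to 11.56 in BXD56. The same strains were thus lowest and highest for both receptors. The r was 0.76 and rho 0.76 (permutation p = 1e-05 for both, the smallest possible), with an adjusted p of 0.0012. Without the 2 strains farthest from the median of *Niacr1*, r was 0.69. The call was kept in 11 of 11 alternatives (adjusted p from 0.000438 to 0.0276) and with each strain left out (adjusted p from 0.000129 to 0.00602). Both genes are paralogs, and the part of shared probe sequence was not tested.

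Strains inherit neighbouring genes together, so the 5 genes on each side of every member in the RefSeq gene order were read as well. Of these 100 neighbours, 1 was called, *Gpr81* for *Niacr1*, and 10 had an unadjusted limma p under 0.05, against 11.5% of all probe sets over the 10 fits together, a share near that of the neighbours. The other neighbour with a low adjusted p was *Dennd4c* beside *Plin2* (adjusted p = 0.0807). Genotypes of the strains were not analysed here.

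Among probe sets with a gene symbol and a mean above background, the genes most like each member were taken as the 3 with the highest and the 2 with the lowest r over 35 strains. For *Pnpla2*, the highest was *Crat*, a carnitine acetyltransferase (r = 0.75, adjusted p = 0.0355), followed by *Epn1* and *Gpr135* (both 0.71), and the lowest were *Vbp1* (-0.72) and *Snx1* (-0.71). For *Lipe*, the highest were *Rragc* (0.71), *Dip2a* and *BC090627* (both 0.68), none past the threshold, and of the lowest, *Polk*, a DNA polymerase, passed (r = -0.74, adjusted p = 0.0308) and *Cenpc1* (-0.64) did not. For *Mgll*, they included *Capn2*, a calpain (0.75), *Arhgef37* (0.74) and *Gm6696* (0.72) on the high side, and *Copb2* (-0.70) on the low side. For *Abhd5*, the highest were *Arxes2* (r = 0.81, rho = 0.76, adjusted p = 7.1e-05), *Tmem11*, a mitochondrial membrane protein (0.79), and *Tbl1xr1* (0.76), and the lowest *Itgb5*, an integrin subunit (r = -0.78, adjusted p = 0.000457), and *Tmem65* (-0.75). For *G0s2*, they included *Bcl9l* (0.74) and *Plin4* (0.68) on the high side, and *Cul2* (-0.77) and *Osgepl1* (-0.76) on the low side.

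For *Plin1*, the genes most alike were *Agpat3*, an acyltransferase of glycerolipid synthesis (0.72), *Hmgcs1*, an enzyme of cholesterol synthesis (0.71), and *Tcl1b1* (0.69), and the least alike *Sec23a* (-0.71) and *Ppfibp2* (-0.70). *Plin2* had the lowest value of all 10 genes with *Adcy9*, an adenylyl cyclase (r = -0.84, rho = -0.80, adjusted p = 1e-05), and next with *Abca8a* (-0.77). *Adcy9* ran from 10.34 through 10.82 to 11.58, and with any strain left out its r with *Plin2* stayed between -0.86 and -0.82. The highest for *Plin2* were *Fam101b* (0.68), *Gyk*, the glycerol kinase (0.67), and *Gars* (0.66). *Plin5* was most like *Acsl1*, an acyl-CoA synthetase (r = 0.78, adjusted p = 0.00817), *Acadvl*, the very long-chain acyl-CoA dehydrogenase (r = 0.77, adjusted p = 0.0141), and *Agpat9*, a glycerol-3-phosphate acyltransferase (r = 0.75, adjusted p = 0.00412). The lowest for *Plin5* were *Mr1* (-0.64) and *Cast* (-0.62, not past the threshold). For *Cidec*, they were *Cat*, catalase (r = 0.76, adjusted p = 0.00649), *Zfand2b* (0.75) and *Gsk3a* (0.74), and *Leprot* (-0.77) and *H2afy* (-0.69). For *Niacr1*, *Gpr81* was followed by *Tmem184a* and *Mkrn2* (both 0.73), and the lowest were *Ddx5*, an RNA helicase, and *Flt1*, a receptor of vascular endothelial growth factor (both -0.75). All genes named here passed the adjusted p threshold unless stated, apart from *Epn1* (adjusted p = 0.0591).

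Marker lists of the cell types that BAT pools can hold were fitted in the same way, each as the mean z-score of its genes. With the brown fat list, 2 of 10 members were called, both rising, against 3.49% of all probe sets in either direction and 1.67% rising. At an unadjusted limma p under 0.05, 6 of 10 passed, against 16.2% of all probe sets, among them *Lipe* (r = 0.48), *Plin1* (r = 0.40) and *Plin5* (r = 0.36). *Cidec* rose with the list (r = 0.65, rho = 0.57, limma adjusted p = 0.00497) in the 5 alternatives run for marker lists and with each strain left out (adjusted p up to 0.0333), and its r was 0.51 without the 2 strains farthest from the list's median. *Abhd5* rose with it as well (r = 0.51, rho = 0.55, adjusted p = 0.0409), but not without BXD70 (adjusted p = 0.0602), nor without BXD45, BXD48, BXD51, BXD55, BXD69, BXD75, BXD79, BXD83, BXD90, BXD95, BXD97 or BXD101, each left out alone. *Pnpla2* had r = 0.59 with the list but an adjusted p of 0.0682. The mean level of the 11 brown fat markers ran from 11.86 in BXD97 to 13.02 in BXD70, the strain whose array also carried the liver transcripts.

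**Figure D5:**
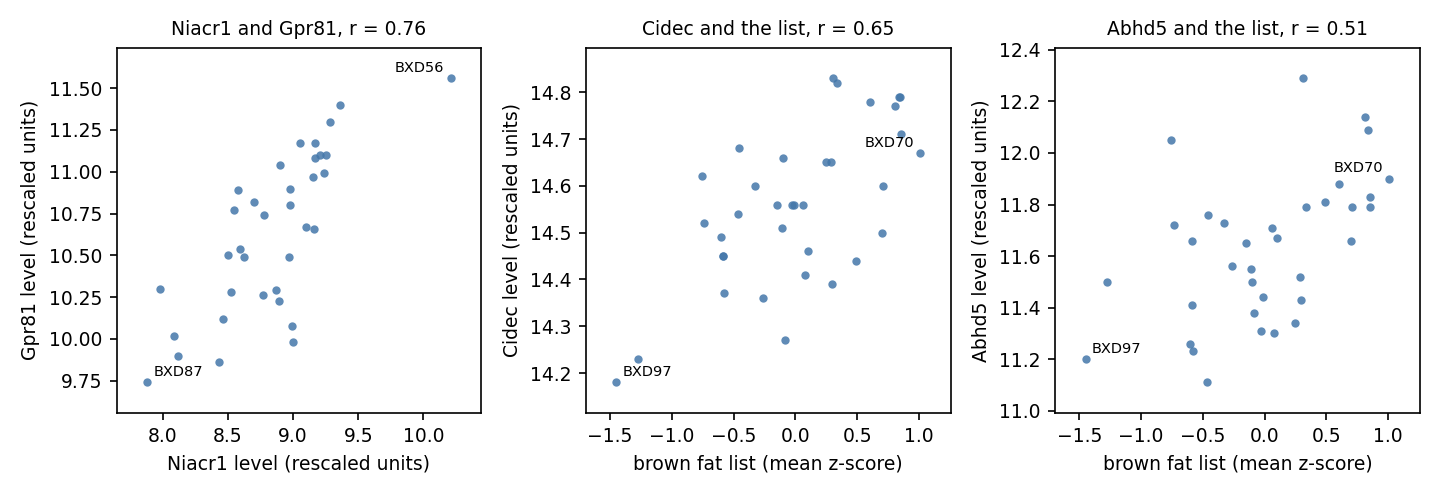
Left, level of *Gpr81* against *Niacr1*, and centre and right, level of *Cidec* and *Abhd5* against the mean z-score of 11 brown fat markers, with 1 point per BXD strain (n = 35) and levels in rescaled array units. BXD56 and BXD87 are the extremes of both receptors (r = 0.76), and BXD97 has the lowest brown fat score in the other 2 panels (r = 0.65 and 0.51).

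No member was called with the skeletal muscle list (12 of 12 markers above background), against 1.84% of all probe sets, and at an unadjusted limma p 0 of 10 passed, against 11%. By ranks, *Plin1* (rho = -0.44, permutation p = 0.00794) and *Pnpla2* (rho = -0.40, permutation p = 0.0197) fell with the muscle list. For the other members the permutation p of rho was 0.103 or more. No member was called with the liver list (5 of 10 markers above background, 0.656%), with 0 of 10 at an unadjusted p, against 6.87%. That list was highest in BXD70. By ranks, *Abhd5* (rho = 0.49, permutation p = 0.00338), *Cidec* (0.45, p = 0.00774) and *Pnpla2* (0.39, p = 0.0205) rose with it. For the other members that p was 0.0706 or more. Without the 2 strains farthest from the list's median, r of these 3 was 0.44, 0.44 and 0.36, against 0.27, 0.26 and 0.17 over all strains. No member was called with the white fat list (6 of 10 markers, 0%), with 3 of 10 at an unadjusted p against 12.8%, *Mgll*, *G0s2* and *Plin2*, of which *G0s2* had r = 0.50. The lymphocyte list (3 of 10 markers, 0.248%) had 0 calls and 1 of 10 at an unadjusted p against 13.7%, *G0s2* with r = 0.44. The 7 markers shared by white and brown adipocytes, a list fitted after the data had been seen, had 0 calls against 0.00243% and 5 of 10 at an unadjusted p against 11.8%, with *Niacr1* at r = -0.37 and *Plin1* highest at r = 0.56. For *Niacr1*, rho was -0.21 (permutation p = 0.232), and r was -0.18 without the 2 strains farthest from the list's median. For *Plin1*, these values were rho = 0.54 and r = 0.44.

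With *G0s2*, 527 probe sets were called, 149 with it and 378 against it, and with *Niacr1* 117, 81 with it and 36 against it. Both counts moved widely. For *G0s2* the count was 12 when the fit held the first principal component, 114 when both probe sets were averaged, 341 when it held the muscle score, 105 without the 2 farthest strains and 1039 with dim probe sets left out, and it ranged from 197 without BXD62 to 637 without BXD95, moving by over 1.5 times also without BXD56, BXD61, BXD66, BXD89, BXD96, BXD99 or BXD101. For *Niacr1* it was 42 without the 2 farthest strains and 251 with dim probe sets left out, and it ranged from 16 without BXD56 to 257 without BXD87, moving likewise without BXD61, BXD66, BXD69, BXD71, BXD80, BXD85, BXD89, BXD92, BXD96 or BXD99.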

How the data were processed

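RNA of BAT from 37 strains was measured on Affymetrix MoGene 2.0 arrays, 1 per strain. The submitters' processing notes name Affymetrix Expression Console. The authors deposited 1 table of 41345 probe sets, whose values are scores: each array was rescaled to mean 8 and SD 2, with the log base not given in the sources used here, so the tests planned for log2 values were run on the scores. All 37 columns were matched to strains by name and 190 control probe sets were left out. Arrays have no read depth, and their number limits precision.

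Tests used limma 3.58.1 (lmFit, eBayes) in R 4.3.3, with Benjamini-Hochberg adjustment over all 41155 probe sets other than the covariate's own, and a threshold of 0.05, after a check on simulated data. Pearson's r and Spearman's rho had 100000 permutations. Python 3.11.15, numpy 2.4.6, pandas 2.3.3 and matplotlib 3.10.9 did the rest. Gene order, positions and start regions came from RefSeq (GRCm38.p6), whose start regions at hand held windows for 9 of 10 members and none for *Niacr1*. Older and newer symbols were matched through it, and of the pathway lists *Cideb* and *Cpt1b* had no match. The genes named are the 10 members, the 3 most and 2 least alike genes of each, and every called pathway gene. Some of the most and least alike genes are not reported here. *Adcy9*, *Dennd4c* and the strains were singled out after their values were seen.

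Members, lists and tests were chosen with earlier results of these data known. Alternatives were quantile normalization, centring on the median, both parents included, the muscle score or first principal component as a covariate, ranks, averaging the probe sets of a gene, leaving out dim probe sets, leaving out BXD70, leaving out the 2 most distant strains of each member, and omitting each strain in turn. Marker lists were refitted with quantile normalization, centring, parents included, dim probe sets left out, BXD70 left out and single strains omitted. The following were chosen after seeing the data: the brown fat score as a covariate, the adipocyte list, the probe sets with a mean over 12 and, for pathway genes and neighbours, the settings of single strains, ranks, the principal component, probe-set means, dim probe sets and the 2 farthest strains.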

Additional observations from a re-analysis of the deposited data

How the results depend on the processing

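The count of called pairs, 3, was 1 with arrays centred on the median, 6 with dim probe sets left out and 1 without the 2 strains farthest from each member's median. With single strains left out it ranged from 1 to 5, and it moved by over 1.5 times without BXD45, BXD51, BXD62, BXD66, BXD83, BXD84, BXD90, BXD96, BXD97 or BXD99. With the brown fat score as a covariate, added after the data had been seen, 2 pairs were called, neither of them among the 3. The count of members past 1.5-fold between the parents, 1, was 0 with quantile normalization and 0 with arrays centred on the median. The 2 calls with marker lists were 1 without BXD70, and between 1 and 2 with single strains left out. The 9 pathway calls were 20 with dim probe sets left out and 4 without the 2 farthest strains, and ranged from 6 to 11 with single strains left out. The 1 called neighbour was 3 with dim probe sets left out and stayed at 1 with every single strain left out. The 4 members with a range of at least 0.81 units were 3 or 4 in every alternative run. Leaving out dim probe sets tests fewer probe sets. Leaving out the 2 farthest strains leaves fewer strains and also removes the extreme values of a member. The cause was not tested for any of these changes. Of these 6 counts, 39 of 48 values under the alternatives other than single strains left out stayed within 1.5 times. Values near background, such as those of *Acot1* and *Niacr1*, are the least reliable. No paired analysis was possible because each strain has 1 array and no replicate number.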
